A study of Mus musculus with 4 samples.

Results

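The genes described here are 44 components and regulators of S phase and DNA replication, chosen by symbol from a table of 14435 genes. Their RNA was sequenced in the mouse macrophage line RAW264.7, an established cell line. The cells had been given E. coli LPS, a bacterial cell wall component that activates TLR4, for 12 hours. Control cells were transfected with a nonspecific shRNA (n = 2 libraries) and knockdown cells with an shRNA directed at Mettl3 (n = 2), whose enzyme methylates adenosines of RNA at N6. LPS was given in all 4 libraries, and unstimulated cells were not analysed here. One label of knockdown replicate 2 names METTL4, while its title and the series design name METTL3. Whether replicates were separate cultures or clones is not stated, so a p-value here rests on the spread between these libraries, which may be technical. A difference due to the knockdown and any other difference between the transfected cells cannot be told apart.

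DNA replication begins when the origin recognition complex, CDC6 and CDT1 load the ring-shaped MCM2-7 helicase on DNA in G1. CDC45 and the GINS complex then turn MCM2-7 into an active helicase at the start of S phase, polymerase alpha with its primase lays down primers, and polymerases delta and epsilon extend them with the sliding clamp PCNA. Many of these genes are transcribed in late G1 by E2F factors, which are held back by RB proteins until cyclin D and cyclin E kinases release them. RAW264.7 is a dividing line, and LPS is known to slow the division of macrophages.

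Total estimated counts were 16342313 to 17193639 per library, and the 44 genes had between 71 and 3119 counts each in a library. All 44 passed the filter on low counts, and with at least 71 counts in every library none passed it through the level of a single group. Values are CPM, counts divided by the library's size and its TMM factor, or log2 fold changes of knockdown over control with their standard error (SE). A gene is called, as risen or fallen, where edgeR's quasi-likelihood test over 11035 genes gave an adjusted p under 0.05. The targeted gene, Mettl3, was at 30.9 and 29.9 CPM in the controls against 11.5 and 11.2 CPM with the knockdown (log2 fold change -1.42, SE 0.10, edgeR adjusted p = 1.58e-06). Of 8 macrophage markers 6 fell, Ptprc rose and Spi1 was not called, where 22.3% of all tested genes fell and 21.4% rose. The summed level of the 8, most of it from Lyz2 and Cd14, was 13400 and 13730 CPM in the controls. In the knockdown it was 8780 and 8727 CPM. Summed fibroblast markers reached at most 0.0603 CPM in the controls and were at 2.14 and 0.345 CPM in the knockdown libraries, while Cd4 and Cd79a, which mark lymphocytes, summed to at most 0.172 CPM. The part of these differences in the results below was not tested.

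On the TMM scale most replication genes were not called. Of the 44 genes 10 rose and 1 fell, 25% in all, where 43.7% of all tested genes were called. The share that rose, 22.7%, lies near that of all genes, 21.4%, and the share that fell was 2.27% against 22.3% of all genes. The largest change was a rise of 0.48 on the log2 scale, or 1.40-fold, in Mcm3. In edgeR's test against a change of 1.5-fold 0 of the 44 were called, where that test called 8.63% of all genes (3.76% rose and 4.87% fell). At an unadjusted p below 0.05 in that test there were 0 of the 44, against 1494 of all 11035 genes. DESeq2, tested against no change, called 4 that rose and 0 that fell. Of all genes it called 14.5% as risen and 16.9% as fallen. The median log2 fold change of the 44 was 0.09, beside 0.01 for all tested genes. In bulk RNA, a different share of cells in S phase and a different level of these RNAs per cell cannot be told apart.

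**Figure D1:**
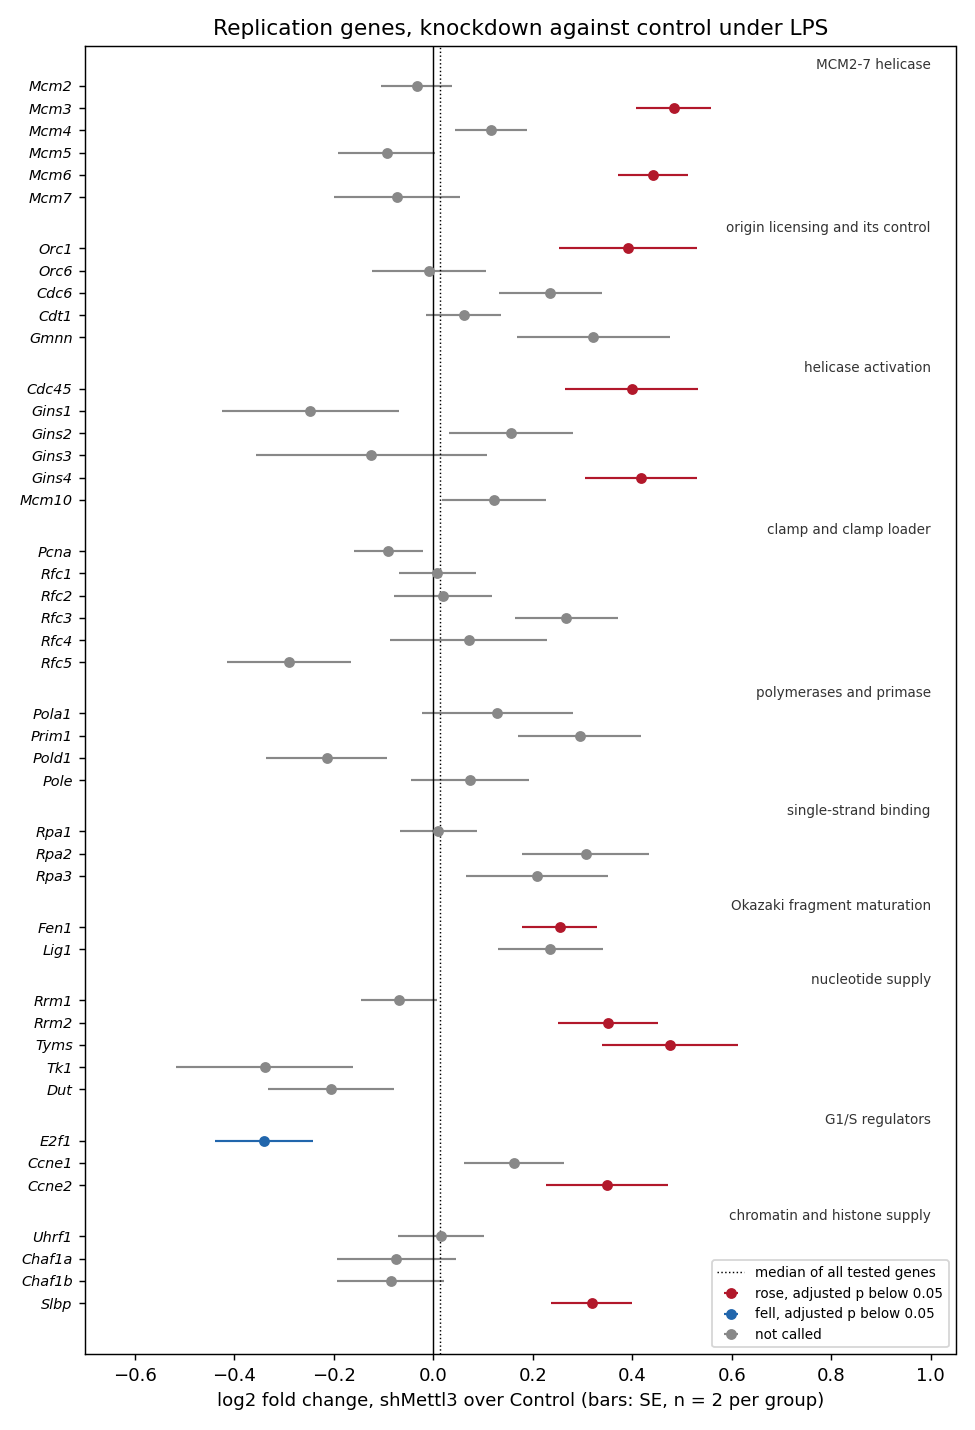
Log2 fold change of each of the 44 replication genes (x axis, knockdown over control) with SE (bars, n = 2 per group), grouped by role, with the called genes coloured. The points lie between -0.34 and 0.48, and the dotted line marks the median of all tested genes at 0.01.

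The libraries within each group differed from each other in these genes. Control replicate 2 was higher than control replicate 1 in 36 of the 44, with medians of 24.1 and 20.1 CPM. Knockdown replicate 2 was higher than knockdown replicate 1 in 32 of the 44, with medians of 24.5 and 23.6 CPM. The same order was not counted over all genes, so it cannot be called particular to the 44. The median absolute log2 difference over the 44 was 0.19 within the control pair and 0.09 within the knockdown pair, and 0.17 to 0.27 for pairs across groups. Without control replicate 1 the median log2 fold change of the 44 was -0.002, beside 0.003 for all genes in that fit. Without control replicate 2 these medians were 0.141 and 0.006. They were 0.158 and 0.012 without knockdown replicate 1, and 0.042 and 0.004 without knockdown replicate 2. The scaling moved the counts of called genes. With library size alone 17 rose and 0 fell, and with the authors' TPM values 20 rose and 0 fell. That is 38.6% of the 44 against 46.2% of all genes with library size, and 45.5% against 45.8% with TPM, so with TPM the share called among the 44 was near that of all genes. Of all genes 29.6% and 32% rose in these fits. These scalings shift the median of all genes to 0.11 and 0.14, and that of the 44 to 0.19 and 0.20, so each change below is relative to the TMM scale. The share of rises among all called genes was 48.9% with TMM, 64.1% with library size alone and 70% with TPM. Before any scaling between groups, the 44 genes took 0.144% and 0.157% of the counts of the controls and 0.169% and 0.176% of those of the knockdown. On the TMM scale their summed level was 1482 and 1627 CPM against 1640 and 1700 CPM, so the groups nearly met.

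**Figure D2:**
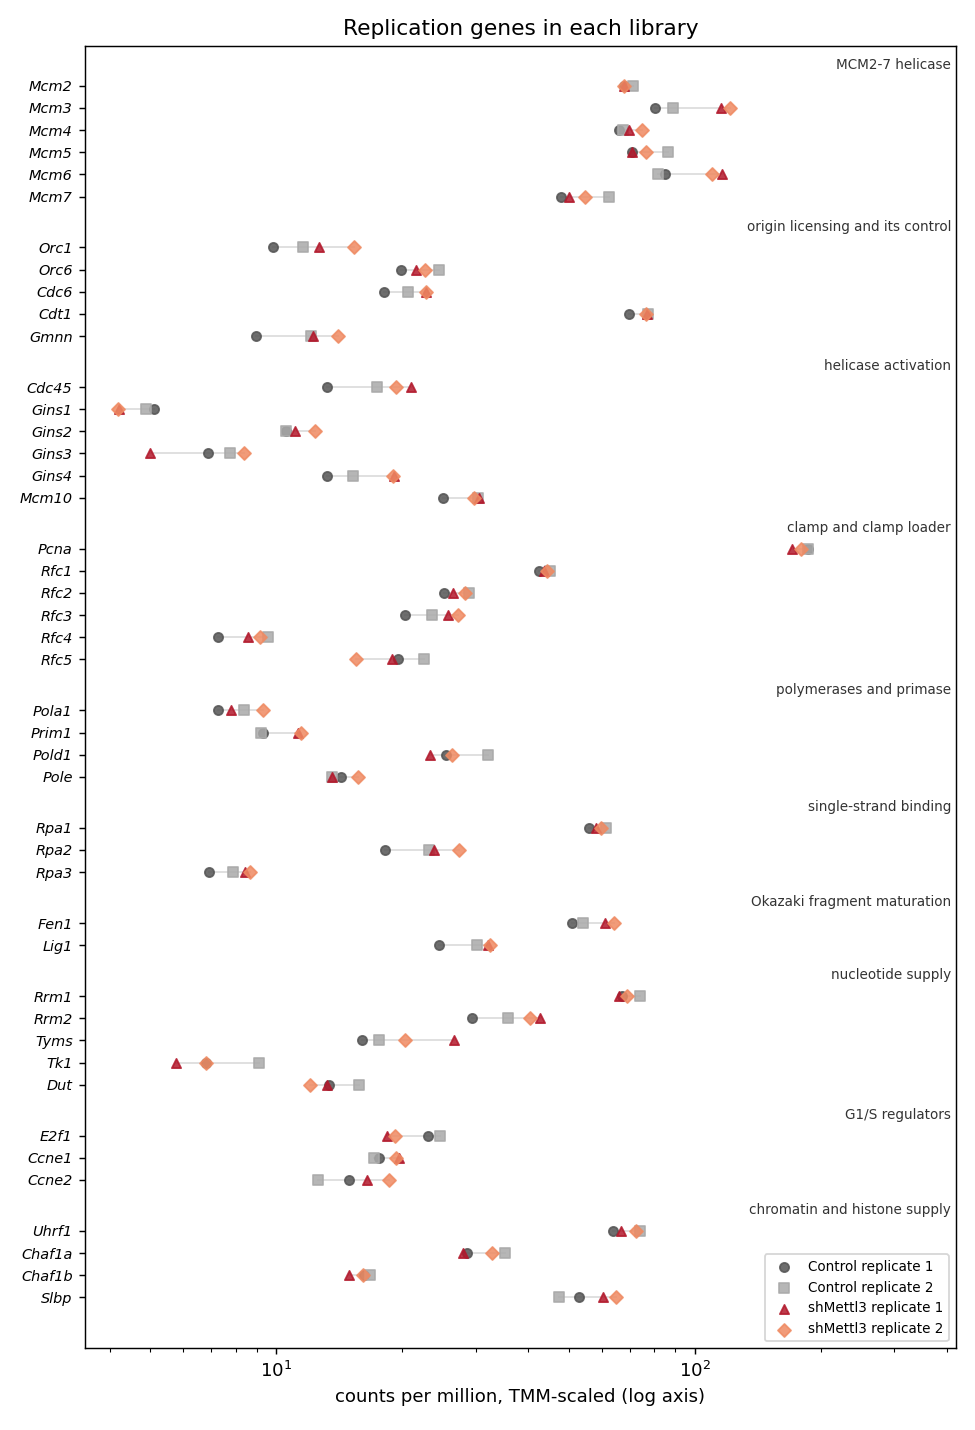
CPM of each of the 44 genes in each library (log axis), with control libraries in grey and knockdown libraries in red and orange. Control replicate 1 lies to the left of control replicate 2 for 36 genes, and knockdown replicate 1 to the left of knockdown replicate 2 for 32. The groups overlap for 17 genes.

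**Figure D3:**
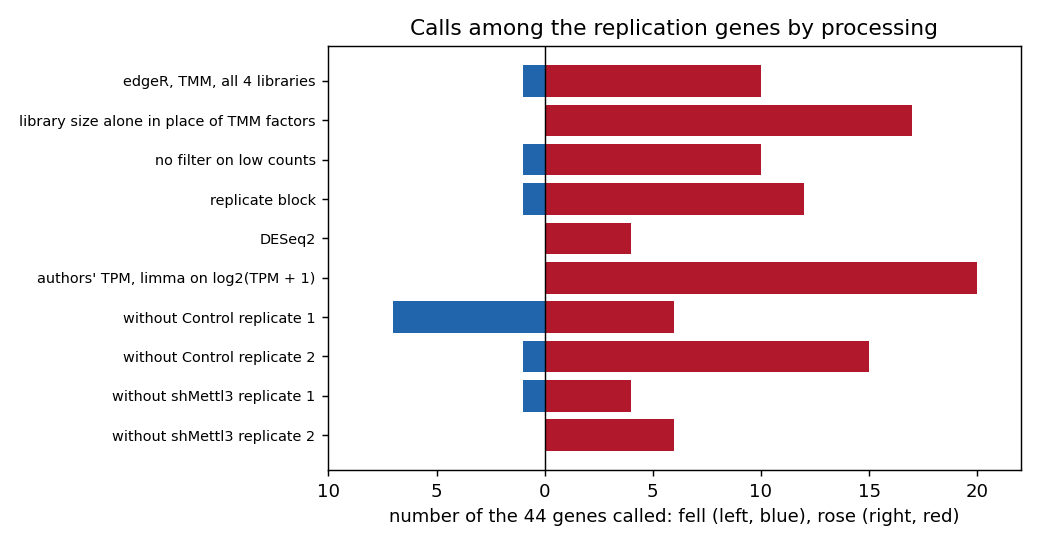
Number of the 44 genes called as risen (red, right) or fallen (blue, left) in each fit. The TMM fit on all 4 libraries gives 10 and 1, or 22.7% and 2.27%, against 21.4% and 22.3% of all tested genes.

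The sequences of 3 promoters that hold a match to the E2F consensus are given, each as the 250 bases before the annotated start. They belong to a helicase subunit that rose (Mcm6), an origin recognition subunit that rose (Orc1) and a helicase subunit that was not called (Mcm5). They come from RefSeq on GRCm38.p6, a later build than the mm9 named in the submitters' processing notes. Capitals mark matches to the E2F consensus, searched as TTTCCCGC, TTTCGCGC, TTTGCCGC and TTTGGCGC on both strands, with overlapping matches joined.
Mcm6, chr1:128359706-128359955, minus strand: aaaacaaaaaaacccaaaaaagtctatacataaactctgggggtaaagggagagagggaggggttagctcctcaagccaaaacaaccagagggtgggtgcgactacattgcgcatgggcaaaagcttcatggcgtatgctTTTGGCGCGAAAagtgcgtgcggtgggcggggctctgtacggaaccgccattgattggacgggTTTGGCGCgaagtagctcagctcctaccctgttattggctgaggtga
Orc1, chr4:108579204-108579453, plus strand: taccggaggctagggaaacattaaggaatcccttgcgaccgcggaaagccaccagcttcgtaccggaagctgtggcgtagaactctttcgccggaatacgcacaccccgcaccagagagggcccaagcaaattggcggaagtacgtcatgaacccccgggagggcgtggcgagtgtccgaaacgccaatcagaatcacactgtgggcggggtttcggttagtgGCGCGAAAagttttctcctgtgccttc
Mcm5, chr8:75109259-75109508, plus strand: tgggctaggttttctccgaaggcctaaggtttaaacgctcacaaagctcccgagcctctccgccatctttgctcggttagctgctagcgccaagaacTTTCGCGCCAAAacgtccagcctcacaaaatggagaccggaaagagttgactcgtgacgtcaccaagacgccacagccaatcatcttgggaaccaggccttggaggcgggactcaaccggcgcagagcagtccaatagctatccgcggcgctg
The Mcm6 promoter holds a stretch of 12 bases, TTTGGCGCGAAA, 110 to 99 bases before the start, and a match of 8 bases at 47 to 40. The Mcm5 promoter holds TTTCGCGCCAAA at 153 to 142 bases before the start, which is the reverse complement of the longer Mcm6 stretch. Orc1 has GCGCGAAA at 27 to 20 bases before the start. Mcm3, the other helicase subunit that rose, has a match at 20 to 27 and another at 39 to 46 bases after its start. Over the table's whole window of 300 bases, 250 before and 50 after the start, 36 of the 44 genes had an entry and 13 of these held a match. By promoter the share was 31.7% of 41, against 2.26% of all 32851 promoters in the table and 4.1% of those of tested genes. Among genes with an entry, 3 of 8 that rose held a match, as did 10 of 27 that were not called and 0 of the 1 that fell. Without a match were Cdc45, Fen1, Rrm2, Slbp and Tyms, which rose, and the helicase subunit Mcm2, which was not called. The CCAAT box, searched as CCAAT on both strands, was in 61% of the 41 promoters and 37.4% of all, including 6 of the 8 genes that rose and 17 of the 27 not called. A match describes the letters only, and binding was not measured.

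Within the MCM2-7 helicase, Mcm3 and Mcm6 rose and the other 4 subunits were not called. Mcm3 (Entrez gene 17215) was at 80.3 and 88.9 CPM in the controls and 115 and 121 CPM in the knockdown libraries (log2 fold change 0.48, SE 0.08, edgeR adjusted p = 4.19e-04). Mcm6 (Entrez gene 17219) was at 84.8 and 81.6 CPM against 116 and 110 CPM (0.44, SE 0.07, edgeR adjusted p = 4.60e-04). For both genes the knockdown libraries lay above the controls with a gap wider than the spread within either group, and both were called in every alternative fit, the only ones of the 44 for which this held. Mcm2 was at 67.7 and 71.1 CPM against 67.7 and 67.9 CPM (-0.03, SE 0.07), and Mcm4 at 66.1 and 67.2 CPM against 69.8 and 74.7 CPM (0.12, SE 0.07). Mcm4 was called with library size alone (0.21) and with TPM (0.25). Mcm5 (-0.09, SE 0.10) and Mcm7 (-0.07, SE 0.13) had overlapping groups, and without control replicate 1 they were called as fallen, by 0.24 and 0.27.

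Per length, the subunits of the helicase, which the protein complex holds in equal number, lay between 29.0 and 48.3 TPM in the controls. Mcm3 was at 45.02 and 48.3 TPM in the controls and 70.4 and 73.8 TPM in the knockdown libraries, and Mcm6 at 45.9 and 42.9 TPM against 68.5 and 64.8 TPM. The TPM of Mcm3 over that of Mcm2 within a library does not depend on the scaling between libraries. It was 1.40 and 1.47 in the controls against 2.01 and 2.10 with the knockdown. The ratio of Mcm6 to Mcm2 was 1.42 and 1.31 against 1.95 and 1.85. The ratio of Mcm4 to Mcm2 was 0.915 and 0.886 against 0.966 and 1.03, also higher without overlap but by less. The ratios of Mcm5 and Mcm7 to Mcm2 overlapped between the groups, at 1.17 to 1.34 and 1.02 to 1.26. An exact permutation test of any such ratio with 2 libraries against 2 cannot go below p = 0.333 (two-sided), which the Mcm3, Mcm4 and Mcm6 ratios reached.

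**Figure D4:**
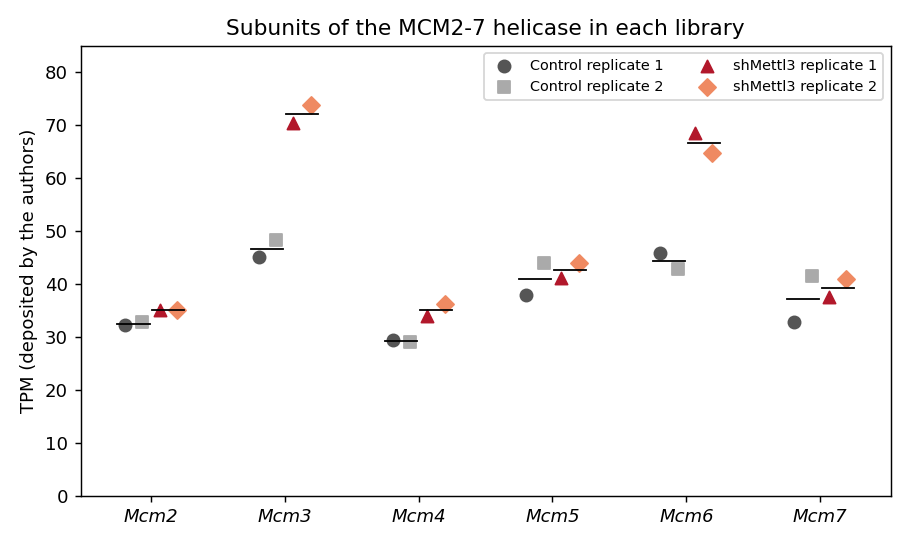
TPM of the 6 subunits of the MCM2-7 helicase in each library, with the mean of each group as a line. Mcm3 and Mcm6 separate, from 42.9 to 48.3 TPM in the controls to 64.8 to 73.8 TPM in the knockdown libraries, and the groups of Mcm5 and Mcm7 overlap.

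Among the 5 genes of origin licensing, Orc1 rose. Orc1, the largest subunit of the origin recognition complex, was at 9.81 and 11.6 CPM in the controls and 12.7 and 15.3 CPM in the knockdown libraries (0.39, SE 0.14, edgeR adjusted p = 0.0405). The call was lost without control replicate 1 (0.27, adjusted p = 0.153), without knockdown replicate 2 (0.25, adjusted p = 0.335) and in DESeq2 (adjusted p = 0.165). Orc6, another subunit, was not called (-0.01, SE 0.11), with overlapping groups of 19.9 and 24.5 CPM against 21.5 and 22.6 CPM. The loader genes Cdc6 (0.24, SE 0.10) and Cdt1 (0.06, SE 0.08) and Gmnn (0.32, SE 0.15), which encodes the CDT1 inhibitor geminin, were not called. Gmnn was at 8.97 and 12.1 CPM in the controls and 12.3 and 14.1 CPM in the knockdown libraries, so the groups nearly touched, and it was called without control replicate 2 (0.55). Cdc6 was called in that fit too (0.33), and both were called with library size alone and with TPM.

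Of the 6 genes that activate the helicase, Cdc45 and Gins4 rose. Gins4, a GINS subunit, was at 13.2 and 15.3 CPM in the controls and 19.1 and 19.0 CPM in the knockdown libraries (0.42, SE 0.11, edgeR adjusted p = 0.0112). It missed the threshold without knockdown replicate 1 (0.42, adjusted p = 0.0575) and in DESeq2 (adjusted p = 0.0695). Cdc45 was at 13.2 and 17.4 CPM against 21.1 and 19.4 CPM (0.40, SE 0.13, edgeR adjusted p = 0.0331). Its call was lost without control replicate 1 (0.20, adjusted p = 0.177), without knockdown replicate 1 (0.34, adjusted p = 0.158) and in DESeq2 (adjusted p = 0.107). The other GINS genes did not follow Gins4 past the threshold. Gins1 was lower in both knockdown libraries, at 4.22 and 4.196 CPM against 5.12 and 4.88 CPM, but was not called (-0.25, SE 0.18), and neither were Gins2 (0.16, SE 0.12) and Gins3 (-0.12, SE 0.23). With TPM Gins2 was called (0.27). Mcm10, which helps CDC45 and GINS act at the fork, had overlapping groups (0.12, SE 0.10) and was called only when control replicate 2 was left out (0.26).

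The clamp, the clamp loader, the polymerases and the single-strand binding protein had 0 of 13 genes called by edgeR and by DESeq2, and 4 of the 13 had an unadjusted edgeR p below 0.05. Of all 11035 tested genes edgeR called 43.7% and DESeq2 31.5%. At an unadjusted edgeR p below 0.05, 2840 of them rose and 2875 fell. Pcna was the most abundant of the 44 per length, at 259 and 250 TPM in the controls and 254 and 270 TPM in the knockdown libraries. On the CPM scale it was at 187 and 186 against 171 and 179 (-0.09, SE 0.07). Of the 5 subunits of the clamp loader, Rfc1 (0.01), Rfc2 (0.02) and Rfc4 (0.07) had overlapping groups. Rfc3 was at 20.3 and 23.6 CPM against 25.7 and 27.1 CPM (0.27, SE 0.10, edgeR adjusted p = 0.0569) and was called without control replicate 2 (0.38). It was also called with library size alone (0.36) and with TPM (0.39). Rfc5 was at 19.6 and 22.5 CPM against 18.9 and 15.5 CPM (-0.29, SE 0.12) and was called as fallen without control replicate 1 (-0.40) and without knockdown replicate 1 (-0.44). The catalytic subunit genes of polymerases alpha, Pola1 (0.13, SE 0.15), and epsilon, Pole (0.07, SE 0.12), had overlapping groups, and so had that of polymerase delta, Pold1 (-0.21, SE 0.12), which was called as fallen without control replicate 1 (-0.39). Prim1, the catalytic primase subunit, was at 9.33 and 9.22 CPM against 11.3 and 11.4 CPM (0.29, SE 0.12, edgeR adjusted p = 0.0744). The groups of Prim1 did not overlap, and it was called with library size alone (0.39) and with TPM (0.40). The genes of the trimer that coats single-stranded DNA had values of 0.01 (SE 0.08) for Rpa1, 0.31 (SE 0.13) for Rpa2 and 0.21 (SE 0.14) for Rpa3. Rpa2 was called without control replicate 2 (0.48), with library size alone (0.40) and with TPM (0.43). Rpa3 was called with TPM (0.31).

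Fen1, the nuclease that removes the flaps of Okazaki fragments, rose. It was at 50.9 and 54.2 CPM in the controls and 61.2 and 64.1 CPM in the knockdown libraries (0.25, SE 0.08, edgeR adjusted p = 0.0181), without overlap. The call was lost without knockdown replicate 1 (0.29, adjusted p = 0.0689), without knockdown replicate 2 (0.22, adjusted p = 0.166) and in DESeq2 (adjusted p = 0.094). Lig1, the ligase that seals these fragments, was at 24.6 and 30.1 CPM against 32.0 and 32.4 CPM (0.24, SE 0.11) and was not called unless control replicate 2 was left out (0.39) or the scaling was library size (0.33) or TPM (0.36).

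Of the 5 genes of nucleotide supply Rrm2 and Tyms rose, and the other 3 were not called. Rrm2, the small subunit of ribonucleotide reductase and the one that varies over the cell cycle, was at 29.3 and 35.9 CPM in the controls and 42.7 and 40.5 CPM in the knockdown libraries (0.35, SE 0.10, edgeR adjusted p = 0.0160). The call was lost without control replicate 1 (0.20, adjusted p = 0.0689), without knockdown replicate 1 (0.32, adjusted p = 0.0974) and in DESeq2 (adjusted p = 0.0555). The large subunit Rrm1 had overlapping groups (-0.07, SE 0.08). Within a library the TPM of Rrm2 over that of Rrm1 was 0.828 and 0.918 in the controls against 1.22 and 1.12 with the knockdown, without overlap. Tyms, thymidylate synthase, rose from 16.1 and 17.7 CPM to 26.7 and 20.3 CPM (0.48, SE 0.14, edgeR adjusted p = 0.0180). The knockdown libraries differed more from each other than the controls did, and leaving out knockdown replicate 1 (0.27, adjusted p = 0.203) or control replicate 1 (0.40, adjusted p = 0.084) ended the call. The Tyms counts were not whole, so some of its reads had been shared out with another gene, and its value is uncertain to that extent. Tk1, thymidine kinase, was at 6.80 and 9.10 CPM against 5.77 and 6.78 CPM (-0.34, SE 0.18), and Dut, which keeps uracil out of DNA, at 13.4 and 15.8 CPM against 13.2 and 12.1 CPM (-0.21, SE 0.13). Both were lower in the knockdown libraries by a gap smaller than the spread between the controls, and both were called as fallen without control replicate 1 (-0.55 and -0.33).

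E2f1, the transcription factor that drives many G1/S genes, was the only one of the 44 called as fallen in the fit on all 4 libraries. It was at 23.0 and 24.6 CPM in the controls and 18.4 and 19.3 CPM in the knockdown libraries (-0.34, SE 0.10, edgeR adjusted p = 0.0163), without overlap. It stayed negative in every alternative and lost the call without knockdown replicate 1 (-0.31, adjusted p = 0.127), without knockdown replicate 2 (-0.38, adjusted p = 0.0576), in DESeq2 (adjusted p = 0.0899), with library size alone (-0.25, adjusted p = 0.0638) and with TPM (-0.18, limma adjusted p = 0.119). Cyclin E, which activates CDK2 at the entry to S phase, has 2 genes. Ccne2 rose from 14.9 and 12.6 CPM to 16.5 and 18.6 CPM (0.35, SE 0.12, edgeR adjusted p = 0.0393). Ccne1 was at 17.6 and 17.2 CPM against 19.6 and 19.3 CPM and was not called (0.16, SE 0.10). It was higher without overlap and was called with TPM (0.28). Within a library the TPM of Ccne2 over that of Ccne1 was 0.5964 and 0.5004 in the controls. With the knockdown it was 0.589 and 0.6618, so the groups overlapped. These ratios do not show that the 2 genes changed differently. The Ccne2 call was lost without control replicate 2 (0.23, adjusted p = 0.167), without knockdown replicate 1 (0.43, adjusted p = 0.052), without knockdown replicate 2 (0.26, adjusted p = 0.263) and in DESeq2 (adjusted p = 0.165). The Ccne2 counts were not whole either.

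Of the 4 genes that carry chromatin through replication, Slbp rose. Slbp, which binds the stem-loop at the end of replication-dependent histone mRNAs, was at 52.9 and 47.5 CPM in the controls and 60.4 and 64.8 CPM in the knockdown libraries (0.32, SE 0.08, edgeR adjusted p = 0.00858). The groups did not overlap, and the call was lost only without knockdown replicate 2 (0.27, adjusted p = 0.0937). Uhrf1, which recruits the maintenance DNA methyltransferase to new DNA (0.02, SE 0.09), and Chaf1a (-0.07, SE 0.12), a histone chaperone subunit, had overlapping groups. Chaf1b, the partner subunit, was at 16.2 and 16.8 CPM against 14.9 and 16.1 CPM (-0.09, SE 0.11), lower without overlap, and it was not called.

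Counted by overlap, the knockdown libraries were both above both controls in 20 of the 44 genes and both below in 7, or 61.4% in all. The share without overlap was 73.4% of all tested genes, 37.1% higher and 36.3% lower.

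Other genes of the pathway were taken from lists of replication, cell cycle entry and mitosis genes. In the lists without G2 and mitosis, 21 of 117 tested genes rose and 15 fell, with a median of 0.05, against 21.4% and 22.3% of all genes. The genes named first are those that kept their call in every alternative, at most 3 in each direction per list.

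Among the other subunits of polymerases and primase 1 of 8 rose and 2 fell. Pola2, the accessory subunit of polymerase alpha, was at 61.7 and 72.9 CPM in the controls and 34.0 and 36.6 CPM in the knockdown libraries (-0.93, SE 0.09, edgeR adjusted p = 2.11e-05). It fell past 1.5-fold, while its partner Pola1 was not called. In origin recognition, licensing and firing 3 of 12 rose and 1 fell. Dbf4, the activating subunit of the CDC7 kinase that fires origins, rose from 19.4 and 20.8 CPM to 29.3 and 33.4 CPM (0.64, SE 0.10), and Orc2 rose by 0.32 (SE 0.08). Among 16 genes of fork protection, alternative clamp loaders and topoisomerases 4 rose and 3 fell. Pclaf, a small partner of PCNA, rose by 0.54 (SE 0.11) and Tipin, of the fork protection complex, by 0.45 (SE 0.10), while the nuclease and helicase gene Dna2 fell from 26.2 and 28.0 CPM to 15.8 and 16.04 CPM (-0.77, SE 0.10).

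In the further genes of nucleotide supply 3 of 18 rose and 3 fell. Gart, of purine synthesis, fell from 122 and 123 CPM to 79.6 and 77.7 CPM (-0.64, SE 0.07). Impdh2, of guanine nucleotide synthesis, fell by 0.53 on the log2 scale and Cad, of pyrimidine synthesis, by 0.44, while Impdh1 (0.42) and the folate enzyme gene Shmt1 (0.54) rose.

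Upstream of S phase the G1 cyclin list had 4 of 9 genes fall and 1 rise. Myc, a growth-promoting transcription factor, fell from 72.4 and 66.2 CPM to 39.7 and 36.0 CPM (-0.87, SE 0.08, edgeR adjusted p = 1.37e-05). All 3 cyclin D genes fell, Ccnd1 by 0.49 and Ccnd3 by 0.47 on the log2 scale. Ccnd2, below the level set for named genes and named after its values were seen, was at 3.67 and 2.29 CPM against 0.595 and 0.747 CPM (-2.14, SE 0.35, edgeR adjusted p = 5.69e-04), past 1.5-fold, and kept its call in every alternative. Of 4 tested CDK inhibitors 2 rose and 1 fell. Cdkn2d, which encodes the CDK4 and CDK6 inhibitor p19, rose from 8.06 and 8.74 CPM to 16.4 and 18.9 CPM (1.07, SE 0.13, edgeR adjusted p = 6.29e-05). In the RB and E2F list 1 of 12 rose and 1 fell, and the gene that fell was E2f6, a repressor, by 0.56 (SE 0.09). Its relative E2f7, also below that level and named after its values were seen, was at 1.93 and 2.71 CPM against 3.81 and 3.45 CPM (0.64, SE 0.24, edgeR adjusted p = 0.0490). The E2f7 call was lost without control replicate 1 (0.41, adjusted p = 0.224), without knockdown replicate 1 (0.57, adjusted p = 0.213), without knockdown replicate 2 (0.71, adjusted p = 0.102), in DESeq2 (adjusted p = 0.226) and with the replicate block (adjusted p = 0.0529).

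With all 4 libraries 1 of 9 genes of the replication checkpoint rose and 3 of 12 of chromatin replication. In either list 0 fell by edgeR or DESeq2, with 0 that fell at an unadjusted edgeR p below 0.05. In mismatch repair and homologous recombination 2 of 17 rose and 0 fell, with 0 that fell in DESeq2 or at an unadjusted p below 0.05. The lists of chromatin replication and of mismatch repair did not stay free of falls in every fit without 1 library. Of all tested genes 22.3% fell by edgeR and 16.9% by DESeq2. At an unadjusted edgeR p below 0.05, 2875 of 11035 fell. Bard1, the partner of BRCA1, rose from 2.83 and 2.59 CPM to 6.78 and 5.58 CPM (1.19, SE 0.20). In the list of G2 and mitosis, the phases that follow replication, 9 of 26 rose and 1 fell, with a median of 0.35. That is 34.6% and 3.85%, against 21.4% and 22.3% of all genes. Without control replicate 1 the median of the list was 0.13, and without control replicate 2 it was 0.61. It was 0.33 without knockdown replicate 1 and 0.39 without knockdown replicate 2. With library size alone 13 rose and with TPM 17 rose, where 29.6% and 32% of all genes rose. A difference from the 44 replication genes was not tested. Plk1, a mitotic kinase, rose from 10.2 and 15.1 CPM to 23.1 and 22.9 CPM (0.87, SE 0.16), and Cenpf (0.91) and Cdc25c (0.93) rose as well. Without control replicate 1 the value of Plk1 was 0.60 and that of Cenpf 0.61. Foxm1, a transcription factor of mitotic genes, fell from 29.2 and 35.7 CPM to 21.4 and 21.1 CPM (-0.61, SE 0.11).

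Another 16 named genes of these lists were called with all 4 libraries but lost the call in at least 1 alternative. In origin firing these were Mtbp (0.38) and Orc5 (-0.28), among polymerase subunits Prim2 (0.38) and Pold4 (-0.35), and at the fork Atad5 (0.48), Top1 (-0.21) and Chtf18 (-0.44). The others were Atic (0.19), Cdc25a (0.21), Cdkn2c (0.58), Cdkn1a (-0.22), Hus1 (0.35), Mms22l (0.50), Asf1a (0.26), Rbbp4 (0.20) and Exo1 (0.49). Cdkn1a, which encodes the CDK inhibitor p21, was the most abundant of these inhibitors, at 502 and 488 CPM against 455 and 397 CPM. Without knockdown replicate 2 its value was -0.12 and 14 of the 16 lost the call, all but Mms22l and Hus1. Without knockdown replicate 1 the call was lost for 10, with values of 0.42 for Mtbp, -0.26 for Orc5, -0.34 for Pold4, -0.20 for Top1, 0.17 for Atic, 0.23 for Cdc25a, -0.32 for Cdkn1a, 0.34 for Hus1, 0.23 for Asf1a and 0.23 for Rbbp4. Without control replicate 1 it was lost for Top1 (-0.16), Atic (0.17), Cdkn2c (0.38), Cdkn1a (-0.21), Asf1a (0.26) and Exo1 (0.31), and without control replicate 2 for Chtf18 (-0.40), Cdc25a (0.17) and Asf1a (0.24). Without knockdown replicate 2 Cdkn2c was at 0.37 and Chtf18 at -0.32. DESeq2 called 1 of the 16, Hus1. All 5 falls among the 16 (Orc5, Pold4, Top1, Chtf18 and Cdkn1a) lost the call with library size alone, and all of these but Pold4 with TPM. Atic and Asf1a lost it with no filter on low counts.

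**Figure D5:**
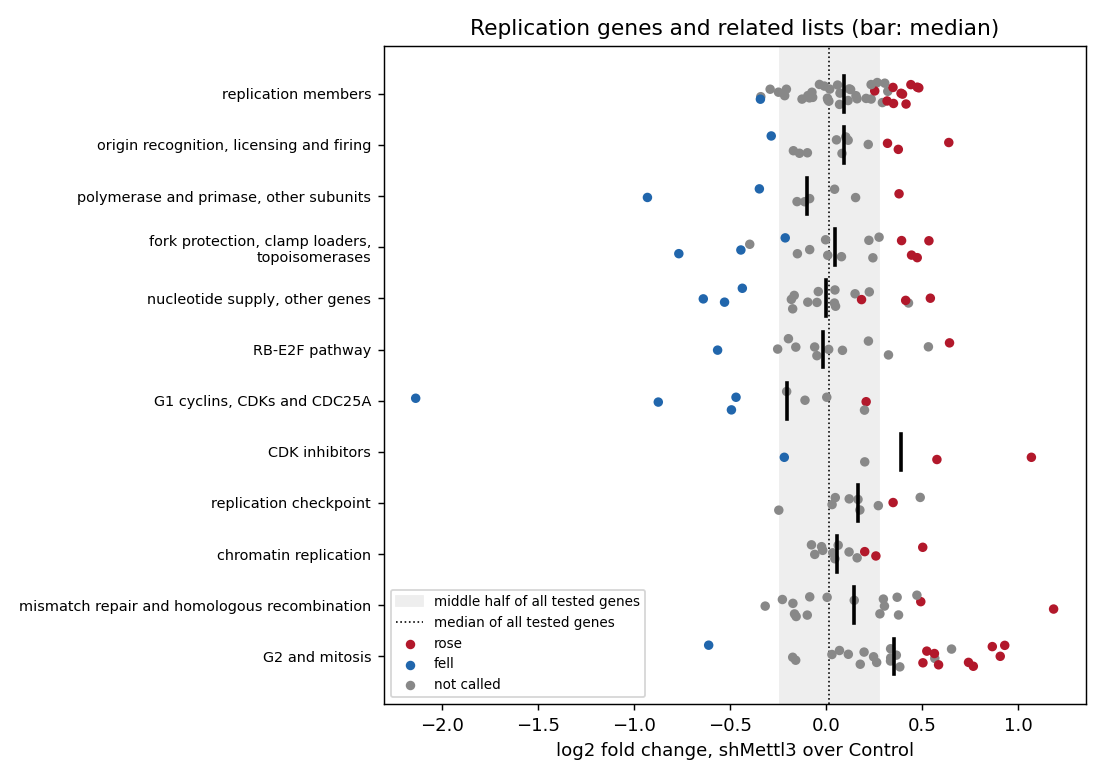
Log2 fold change of the 44 replication genes and of 11 related lists (rows), each point a gene, with the median as a bar. The grey band spans the quartiles of all tested genes, from -0.24 to 0.28, and the median of the G2 and mitosis list lies at 0.35.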

How the data were processed

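Per the labels' protocols, cDNA of the 4 libraries was primed with oligo-dT, amplified by PCR and read from a single end on the BGISEQ500. No strand marking and no molecular identifiers are stated. The authors deposited, per the file headers, estimated counts, FPKM and TPM for each gene, and the processing notes of the submitters list RSEM 1.2.12, Bowtie2 2.2.5, HISAT2 2.0.4 and mm9, without their roles. The gene annotation used for counting is not given in the sources used here. Deposited estimated counts, not whole for 1808 genes, were rounded. The deposited FPKM values were not used here. The deposited TPM values served for levels between genes and as log2(TPM + 1) in limma 3.58.1.

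Counts were tested with edgeR 4.0.16 (R 4.3.3, robust quasi-likelihood fit on the group, filterByExpr with minimum count 10 and minimum total 15, TMM factors 0.97 and 0.966 in the controls, 1.03 and 1.04 in the knockdown), leaving 11035 genes, with Benjamini-Hochberg adjustment. DESeq2 1.42.0, library size scaling, no filter, a replicate block and each library left out were alternatives. SE was obtained from each log2 fold change and its F statistic. The common dispersion corresponds to a coefficient of variation of 0.0678 between libraries. Chi-square over degrees of freedom was 11.9 between controls and 4.28 between knockdown libraries, so neither pair agreed within sampling noise. Members and lists were chosen with earlier results of these data known. All members are accounted for, and named genes of other lists were limited to called genes with at least 5 CPM in the higher group, at most 3 per direction.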

Additional observations from a re-analysis of the deposited data

How the results depend on the processing

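Mcm3 and Mcm6 were called as risen in all 9 alternatives, and the other 9 called genes lost the call in at least 1. Of 37 genes named by the rule for the other lists 21 were called in every alternative, and 0 changed sign in any. That rule took called genes with the largest changes, and the alternatives reuse the same libraries. A kept sign was therefore likely from the start and is no separate support. Calls among the 44 genes ranged, over fits without 1 library, from 4 to 15 that rose and from 0 to 7 that fell. Over the same fits all genes had 1503 to 2543 that rose and 1592 to 2781 that fell, the related lists 18 to 50 that rose, and the median of the 44 lay between -0.002 and 0.158. With library size alone 17 of the 44 rose and 0 fell, and 46 genes of the related lists rose against 30 with TMM. With TPM 20 of the 44 rose and 0 fell, 54 of the related genes rose, and 1516 of all genes fell against 2466. In DESeq2 4 of the 44 rose and 0 fell, and 18 related genes rose, with 31.5% of all genes called. The cause of these shifts was not tested.

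Some of the 44 genes that were not called with all 4 libraries changed sign. With library size alone the values were 0.061 for Mcm2, 0.002 for Mcm5, 0.023 for Mcm7, 0.087 for Orc6, 0.005 for Pcna, 0.026 for Rrm1, 0.021 for Chaf1a and 0.009 for Chaf1b. With TPM they were 0.108, 0.057, 0.084, 0.138, 0.042, 0.075, 0.068 and 0.080 for the same genes. With no filter Rfc1 was at -0.005 and Rpa1 at -0.003. Over the fits without 1 library, values ranged from -0.243 to 0.051 for Mcm5, -0.265 to 0.127 for Mcm7, -0.163 to 0.144 for Orc6, -0.028 to 0.135 for Cdt1, -0.55 to 0.199 for Gins3, -0.023 to 0.262 for Mcm10, -0.049 to 0.048 for Rfc1, -0.087 to 0.115 for Rfc2 and -0.126 to 0.276 for Rfc4. They ranged from -0.007 to 0.251 for Pola1, -0.034 to 0.172 for Pole, -0.067 to 0.072 for Rpa1, -0.100 to 0.121 for Uhrf1 and -0.231 to 0.081 for Chaf1a.

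Libraries share replicate numbers, but the labels do not say that a number marks a shared culture or day. The deviations of same-numbered libraries from their group means correlated at 0.146 across genes. With the replicate block 12 of the 44 rose and 1 fell, Rfc3 (0.27) and Rpa2 (0.31) being added, and 5116 genes were called in all against 4826. Fits without 1 library leave a group with a lone library, which is assumed to vary like the other group. The 2 libraries per group limit the precision of every value, and differences within the spread of a pair were not detectable here.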
